A study of Mus musculus with 4 samples.

Results

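The 5 genes Pck1, G6pc1, Fbp1, Pcx and Slc37a4, which make glucose from smaller carbon compounds, were followed through the cells of injured mouse kidneys. They were chosen by name, as 5 of the 57132 genes with raw counts in every library. The rule uses no measured value, although earlier results of these data were known when the genes were chosen. The data are 4 single-cell RNA libraries, made by the 10x Genomics droplet method from dissociated fresh kidneys of 4 wild-type mice, 1 library per mouse. In all 4 mice acute kidney injury had been induced with a contrast agent of the kind used in imaging (CIAKI in the labels), and all are labelled batch 1 and biological replicates. The sources used here give no agent, dose, time, age or sex. Untreated mice are not among the samples, so every comparison below lies between cells of injured kidneys.

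Gluconeogenesis builds glucose from lactate, glutamine, glycerol and other precursors. In the kidney it takes place in the proximal tubule, the first stretch of the nephron, which takes part in acid-base balance through the same pathway. Pcx (pyruvate carboxylase) makes oxaloacetate from pyruvate inside mitochondria, and Pck1 (cytosolic phosphoenolpyruvate carboxykinase) turns oxaloacetate into phosphoenolpyruvate. Fbp1 (fructose bisphosphatase) removes a phosphate from fructose bisphosphate further along. In the endoplasmic reticulum, Slc37a4 carries glucose phosphate across the membrane, and G6pc1, the catalytic subunit of glucose-6-phosphatase, frees the glucose. Most other steps are run in both directions by the enzymes of glycolysis. Havcr1 encodes kidney injury molecule KIM-1, which the injured proximal tubule makes, and it served here to separate proximal tubule cells into those with and without a detected Havcr1 molecule.

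All 5 genes have start sites in the RefSeq promoter table (assembly GRCm38.p6, 8 windows in all). The 250 bases before the start are shown for Pck1, G6pc1, Fbp1 and Slc37a4, because transcription of this pathway is known to be regulated there. Pck1, Fbp1, G6pc1 and Pcx were far higher in proximal tubule-like cells than in the other tubular classes, while Slc37a4 differed less. The Pcx windows were searched but are not printed. The printed windows lie at chr2:173152823-173153072 (plus strand) for Pck1, chr11:101367466-101367715 (plus strand) for G6pc1, which RefSeq names G6pc, chr13:62888283-62888532 (minus strand) for Fbp1 and chr9:44396696-44396945 (plus strand) for the first of 3 Slc37a4 starts. Capitals mark matches to TGACGT (the core of the cAMP response element) or TGTTTT (a forkhead, or insulin response, element), searched on both strands.
Pck1: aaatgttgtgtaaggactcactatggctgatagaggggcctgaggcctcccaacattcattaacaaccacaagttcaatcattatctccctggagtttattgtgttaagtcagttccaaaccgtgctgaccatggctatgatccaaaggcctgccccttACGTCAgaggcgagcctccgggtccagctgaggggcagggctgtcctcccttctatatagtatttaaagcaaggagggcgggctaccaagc
G6pc1: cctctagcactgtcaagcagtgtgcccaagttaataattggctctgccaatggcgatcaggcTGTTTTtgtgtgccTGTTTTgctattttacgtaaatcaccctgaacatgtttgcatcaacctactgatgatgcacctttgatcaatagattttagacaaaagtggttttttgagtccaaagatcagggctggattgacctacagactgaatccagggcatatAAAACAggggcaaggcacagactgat
Fbp1: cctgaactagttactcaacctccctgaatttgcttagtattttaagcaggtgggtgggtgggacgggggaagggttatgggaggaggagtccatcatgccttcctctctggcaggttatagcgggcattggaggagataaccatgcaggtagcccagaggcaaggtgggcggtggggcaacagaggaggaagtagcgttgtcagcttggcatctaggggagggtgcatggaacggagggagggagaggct
Slc37a4: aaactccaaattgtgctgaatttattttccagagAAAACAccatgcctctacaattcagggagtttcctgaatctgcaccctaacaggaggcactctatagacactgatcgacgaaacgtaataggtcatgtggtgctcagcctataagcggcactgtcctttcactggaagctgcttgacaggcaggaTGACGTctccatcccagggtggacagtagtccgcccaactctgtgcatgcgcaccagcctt
Of 32851 windows of this length, 6.47% held TGACGT and 19.8% TGTTTT. Counted in bases from the start site, the Pck1 window held TGACGT on the reverse strand at -91 to -86. The G6pc1 window held TGTTTT at 3 places, of which -188 to -183 and -174 to -169 lie close together. The first Slc37a4 window held TGACGT at -61 to -56 and TGTTTT on the reverse strand at -216 to -211. Its second window, not printed, held TGACGT at -214 to -209, in a stretch shared with the first. The third, also not printed, held TGTTTT at -106 to -101. The Fbp1 window and both Pcx windows held 0 matches. Within a window no 2 matches overlapped, and a match describes letters only.

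In all, 48213 barcodes held 273788487 unique molecular identifiers (UMIs, each standing for 1 captured RNA molecule). Filters and doublet calls left 39904 cells, between 7083 and 12559 per mouse, with medians of 5549, 5772 and 5568 UMIs in mice 1 to 3 and 2036 in mouse 4. Ribosomal protein transcripts took 1.48% to 2.35% of UMIs in mice 1 to 3 and 13.4% in mouse 4, so mouse 4 stands apart. Mouse 4 shared 1 barcode with the other libraries, which shared 23 to 54 with each other. Clusters gave 14 classes named by fixed markers, and 5907 cells in 11 clusters stayed unnamed. Values are counts per 1000000 UMIs (CPM) of the summed cells of a class in a mouse. Tests compared classes within each mouse, so p-values measure how evenly a difference held over these 4 mice. They do not measure the spread of levels between mice, and the test shares its estimate of spread across genes.

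Proximal tubule-like cells numbered 2594 (420, 183, 787 and 1204 in mice 1 to 4) and lay in 3 clusters, numbered 14, 16 and 24. Havcr1 was detected in 477 of them (66, 38, 312 and 61), of which 212 held exactly 1 Havcr1 molecule, and 2117 were Havcr1-negative. Detected cells made up 15.7%, 20.8%, 39.6% and 5.07% of the class in mice 1 to 4.

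Pck1 and Fbp1 fell in Havcr1-detected cells, and the other 3 genes did not pass the test. Pck1 dropped 2.33-fold and Fbp1 1.90-fold, each in 4 of 4 mice. Of the 9864 genes tested, 1.51% were called in either direction, 1.15% as lower and 0.365% as higher, against 2 of the 5 genes here, both lower. At the entry of the pathway, Pck1 stood at 4316, 6496, 1045 and 2704 CPM in Havcr1-negative cells of mice 1 to 4 and at 2426, 2325, 835 and 830 CPM in detected cells. Within each mouse the detected cells were lower, by least in mouse 3, but mice differed so much that the ranges of both states overlap. The log2 fold change was -1.22 (SE 0.22, 95% interval -1.69 to -0.75, adjusted p = 0.0115, edgeR quasi-likelihood test with Benjamini-Hochberg adjustment, n = 4 mice). Pcx, at the other entry step, stood at 186, 169, 136 and 121 CPM in negative and 148, 252, 144 and 63.5 CPM in detected cells. It was lower in mice 1 and 4 and higher in mice 2 and 3. Its log2 fold change of -0.21 had an interval of -0.64 to 0.22 (edgeR adjusted p = 0.643).

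Fbp1, at the middle of the pathway, stood at 733, 908, 934 and 735 CPM in negative cells and at 446, 462, 727 and 325 CPM in detected cells of mice 1 to 4. In every mouse the detected cells were lower, and the highest detected value, in mouse 3, lay just under the lowest negative one, so the ranges of the states did not overlap. The log2 fold change was -0.93 (SE 0.18, 95% interval -1.31 to -0.55, edgeR adjusted p = 0.0170). Of the pair that releases glucose, G6pc1 stood at 237, 309, 118 and 145 CPM in negative and 206, 420, 62.7 and 11.2 CPM in detected cells, the last resting on 3 UMIs. It was lower in 3 of 4 mice and higher in mouse 2, with a log2 fold change of -0.69 (interval -1.33 to -0.05, edgeR adjusted p = 0.258). Slc37a4 stood at 70.8, 46.4, 33.2 and 32.4 CPM in negative and 32.1, 48.0, 26.0 and 14.9 CPM in detected cells. It too was lower in every mouse but mouse 2, with a log2 fold change of -0.72 (interval -1.24 to -0.21, edgeR adjusted p = 0.147).

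**Figure D1:**
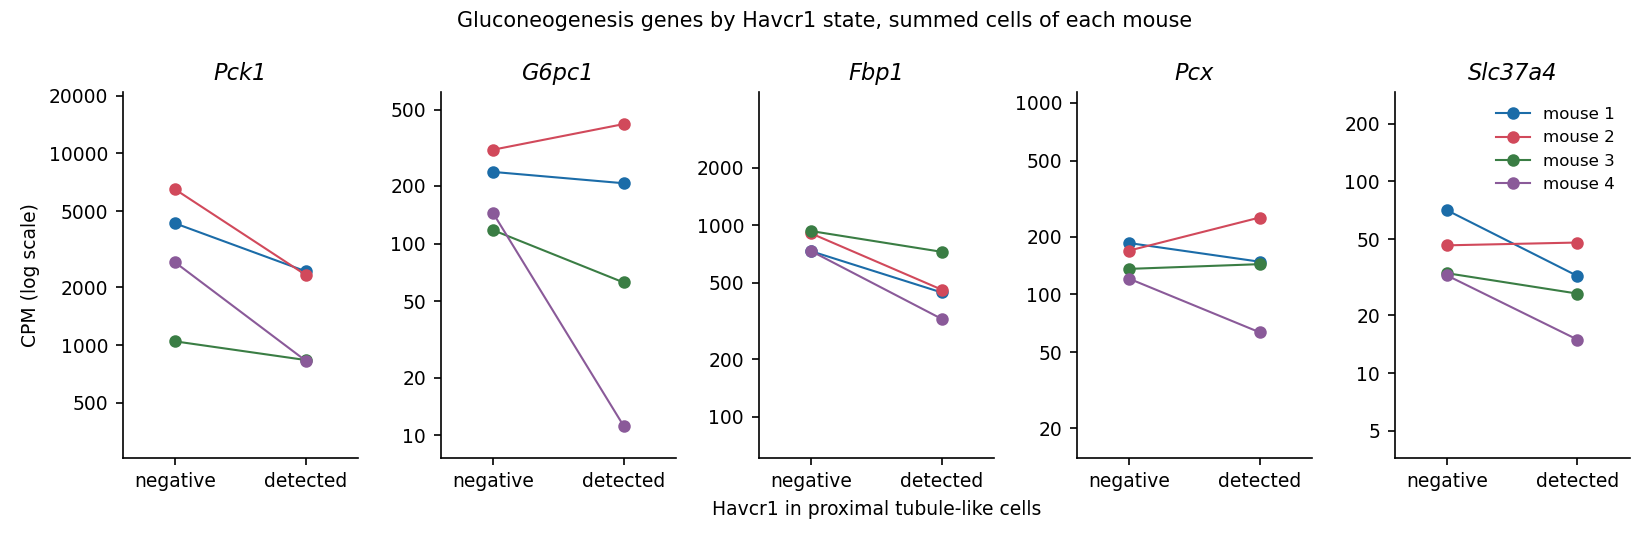
Level of each gene in proximal tubule-like cells of each mouse, in CPM on a log scale of equal span, without and with a detected Havcr1 molecule; a line joins the states of 1 mouse (4 mice). All 4 lines of Pck1 and of Fbp1 descend, while those of G6pc1, Pcx and Slc37a4 do not all point one way.

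Neither Pck1 nor Fbp1 was called within a single cluster, or when mouse 1, 2 or 4 was left out. Cluster 16 held 267 of the 477 detected and 656 of the 2117 negative cells. Within it the log2 fold changes were -0.61 for Pck1 (adjusted p = 0.479) and -0.57 for Fbp1 (adjusted p = 0.413), neither called by edgeR, a fit chosen after the data had been seen. Without mouse 1, 2 or 4 the adjusted p of Pck1 was 0.0544, 0.0781 and 0.0835 and that of Fbp1 0.107, 0.0856 and 0.0933, with log2 fold changes of -0.99 to -1.29 and -0.79 to -0.94. Without mouse 3, edgeR called both, at -1.48 (adjusted p = 3.29e-05) for Pck1 and -1.09 (adjusted p = 0.00198) for Fbp1. Detected cells held more UMIs in every mouse, with medians of 7002, 8378, 6068 and 4009 against 3376, 4058, 2584 and 1763. In cells thinned to 1000 UMIs the changes were -1.64 for Pck1, -1.09 for Fbp1 and -1.21 for G6pc1, and edgeR called all 3 (adjusted p = 0.0249 for G6pc1). It did not call Pcx (-0.32, adjusted p = 0.545), and Slc37a4 was not among the genes tested. Over all genes, this fit called 195 of 3876.

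Markers of other cells moved with the states in part. Of 7 immune markers, 6 or 7 had UMIs in negative cells of every mouse, with Cd79a at 0 in mouse 2, and 4 to 7 in detected cells, with Cd79a at 0 in mice 1, 2 and 4 and Csf1r and Cd3e at 0 in mouse 2. Their summed level was 2749, 2323, 397 and 82.5 CPM in negative and 644, 312, 603 and 243 CPM in detected cells. It was thus higher in negative cells of mice 1 and 2 and lower in those of mice 3 and 4. The 7 thick ascending limb markers, of which 4 to 7 had UMIs in negative and 3 to 7 in detected cells, summed to 285, 108, 170 and 224 CPM in negative and 200, 135, 78.4 and 93.4 CPM in detected cells, lower in detected cells of mice 1, 3 and 4, the mice in which G6pc1 was lower too. The 8 endothelial markers, of which 7 or 8 had UMIs in negative and 6 to 8 in detected cells, summed to 169, 197, 304 and 72.7 CPM in negative and 52.0, 111, 344 and 63.5 CPM in detected cells, lower in detected cells of mice 1, 2 and 4. Cldn16 was at 0 in both states of mice 2 and 3, and Kcnj1 and Casr in both states of mouse 2. Detected cells also had Ptger3 at 0 in mouse 2, Kcnj1 in mice 3 and 4 and Casr in mouse 4. Among endothelial markers Ehd3 was at 0 in negative cells of mouse 3 and detected cells of mouse 2, and Cdh5 and Kdr in detected cells of mouse 4. The part of these 2 marker lists in the result was not tested beyond the filter that follows. Among cells with at most 1 UMI of 6 markers of other classes, a filter chosen after the data had been seen, Pck1 changed by -1.32 (adjusted p = 0.0213), Fbp1 by -1.24 (adjusted p = 0.0213) and G6pc1 by -1.55 (adjusted p = 0.0178), all called by edgeR. This fit used mice 1, 3 and 4 only, since the filter left 7 detected and 39 negative cells in mouse 2. Over all genes it called 27 of 8891. G6pc1 was higher in detected cells of mouse 2 alone. Leaving out that mouse with no such filter gave a G6pc1 change of -1.10 (edgeR adjusted p = 0.239). The summed level of the 16 proximal tubule markers was 4159, 3032, 2561 and 1371 CPM in negative cells and 3359, 4125, 2677 and 1682 CPM in detected cells. This sum was lower in the detected cells of mouse 1 only, unlike Pck1 and Fbp1. Slc13a1 alone took 1556, 1220, 642 and 245 CPM of it in negative cells of mice 1 to 4. In detected cells it took 1197, 2433, 1030 and 247 CPM. The sum follows its highest genes and does not show that the markers held as a set. The median change of the S1/S2 markers, given below, was negative.

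Around the 5 genes, the enzymes shared with glycolysis and those that feed the pathway lay lower in detected cells, but few were called. All lists are given by counts, beside a median log2 fold change of -0.01 over all genes tested. The 5 gluconeogenesis genes had a median of -0.72. Of 8 enzymes of the reversible steps, all 8 lay below 0, with a median of -0.51, and 1 fell. Of the others, Gapdh stood at a log2 change of -0.71 (edgeR adjusted p = 0.0954) and Aldoa at -0.56 (adjusted p = 0.153). Of 16 genes of substrate entry, 15 lay below 0, with a median of -0.44, and 1 fell. Mdh1, the cytosolic malate dehydrogenase that remakes oxaloacetate from malate, stood at 433, 518, 857 and 741 CPM in negative and 292, 249, 676 and 407 CPM in detected cells (log2 change -0.83, SE 0.18, edgeR adjusted p = 0.0283).

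Of 19 tested regulators of gluconeogenic transcription (20 listed), 1 fell, with a median of -0.22. This was Hnf4a, a nuclear receptor of proximal tubule and liver, at 207, 212, 98.3 and 101 CPM in negative and 145, 186, 52.0 and 67.3 CPM in detected cells (log2 change -0.70, SE 0.17, edgeR adjusted p = 0.0487). It was lower in the detected cells of every mouse, by least in mouse 2. With mouse 1, 2 or 4 left out, or within cluster 16, edgeR called 0 genes in these 3 lists, with 0 to 9 of a list at an unadjusted p of 0.05. edgeR called 0 of 7 tested enzymes of the opposing glycolytic steps (13 listed, median -0.22, 0 at an unadjusted p of 0.05) and 0 of 3 glucose carriers (2 at an unadjusted p of 0.05). Among these, Slc2a2, the carrier GLUT2 through which glucose leaves the cell, stood at a log2 change of -0.72 (edgeR adjusted p = 0.0690). Of the 4 tested paralogs (7 listed) it called 0, with 1 at an unadjusted p of 0.05, and their median was 0.30. DESeq2 called 0 in these 3 lists too, and 0 of the regulators.

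Marker lists of the tubule itself did not move as 1 block. Of 10 markers of the early segments (S1/S2), 2 fell, the lactate carrier Slc5a12 by 1.69 and the amino acid carrier Slc7a7 by 0.96 on the log2 scale (edgeR adjusted p = 8.36e-05 and 0.0129), with a list median of -0.22. Of the 3 tested markers of the late segment S3, edgeR called 0 (6 listed, median 0.61, 0 at an unadjusted p of 0.05). Of 11 other genes of tubular injury, 1 was called and it was lower, Lcn2 (log2 change -1.58, edgeR adjusted p = 0.00562), and the list's median was -0.43. Neutrophils also make Lcn2, and thick ascending limb-like cells held it at 1433, 1429, 8894 and 8583 CPM in mice 1 to 4. The part of RNA from other cells in this change was not tested. Without mouse 1, edgeR called 0 of this list, with 6 at an unadjusted p of 0.05. Krt20, an injury keratin, stood at a log2 change of 1.18 (edgeR adjusted p = 0.183). Its level was 16.3, 20.1, 536 and 43.6 CPM in negative and 48.9, 66.0, 379 and 407 CPM in detected cells of mice 1 to 4. Krt20 was thus lower in the detected cells of mouse 3 only. Of 8 genes of dissociation and early stress edgeR called 0 (median -0.16, 3 at an unadjusted p of 0.05), and DESeq2 called 0 of these and 0 of the S3 markers. Within cluster 16 the reversible steps had 4 of 8 genes below 0, a median of 0.08 and 0 calls, and the gluconeogenesis genes a median of -0.61.

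**Figure D2:**
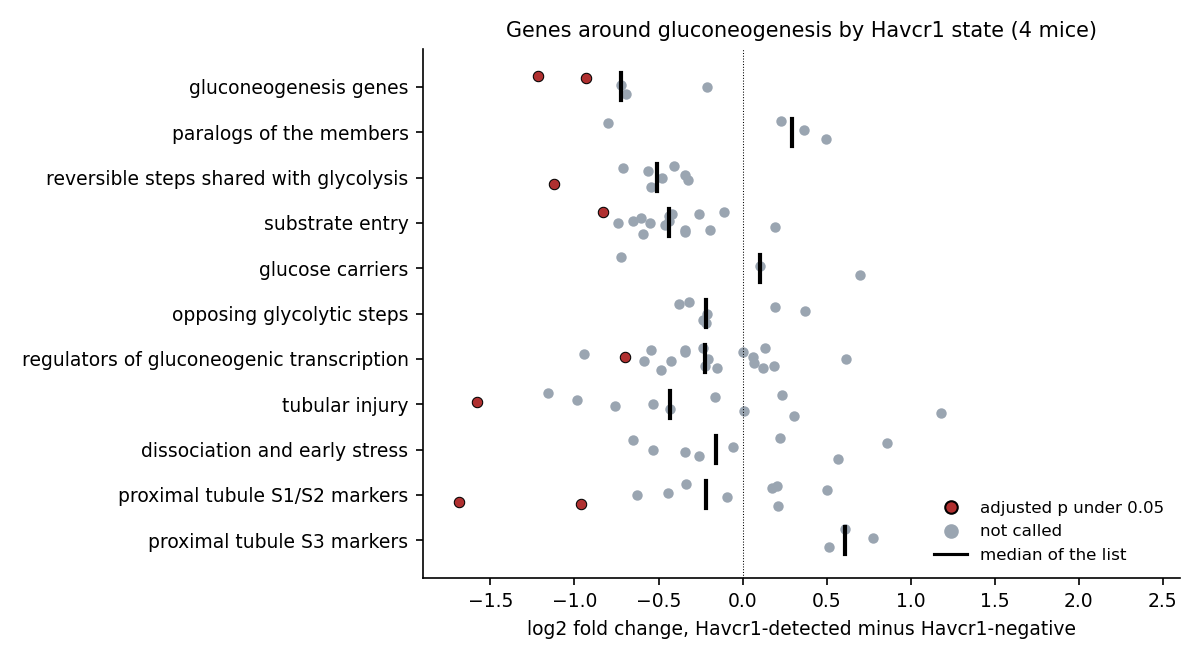
Log2 fold change between Havcr1-detected and Havcr1-negative proximal tubule-like cells for every tested gene of the 5 gluconeogenesis genes and of the other lists (points), with each list's median (bar). Red points passed an adjusted p of 0.05, and all 8 of them lie below 0.

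In single cells, a smaller share of Havcr1-detected cells held several of the genes in each of the 4 mice. After thinning each cell to 1000 UMIs, which left out 454 negative and 26 detected cells, 2 or more of the 5 genes had a UMI in 44.1%, 55.4%, 43.8% and 46.1% of negative cells of mice 1 to 4. The same share of detected cells was 27.9%, 41.2%, 25.7% and 13.3%, lower in each mouse. The Havcr1 state was set on full counts, so shallow cells that made Havcr1 can still lie among the negative ones. After thinning, 37.7%, 32.4%, 48.3% and 41.7% of detected cells of mice 1 to 4 still held a Havcr1 UMI. The means were 47.3% ± 5.45 and 27.0% ± 11.4 (SD, n = 4). None of the 5 was seen in 18.6% ± 5.40 of negative and 38.4% ± 10.6 of detected cells. In T lymphocyte-like cells, which should lack the pathway and serve as a measure of free RNA, 0.157% held 2 or more, and in thick ascending limb-like cells 0.455%. Within cluster 16 the shares were 27.6%, 34.5%, 18.9% and 40.9% of negative and 18.4%, 36.7%, 6.16% and 11.8% of detected cells, lower in 3 of 4 mice and higher in mouse 2. No test was made of these shares.

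**Figure D3:**
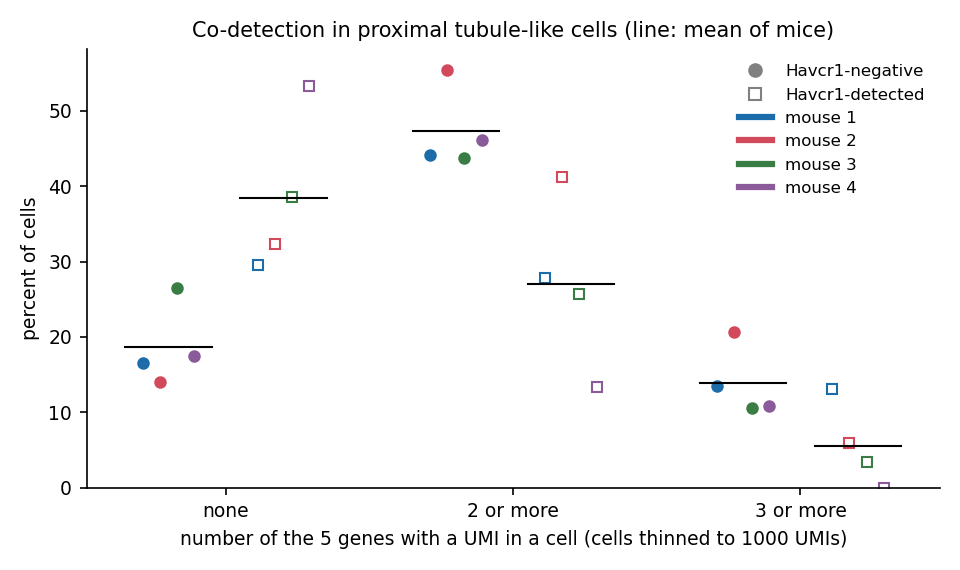
Percent of proximal tubule-like cells in which none, 2 or more, or 3 or more of the 5 genes had a UMI, after thinning to 1000 UMIs per cell, for Havcr1-negative (filled circles) and Havcr1-detected cells (open squares) of each mouse; bars are means of 4 mice. In each mouse the detected cells had the higher share with none and the lower share with 2 or more, while for 3 or more the points of mouse 1 nearly coincide.

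Among the 3 proximal tubule-like clusters, cluster 16 held the least Pck1 and Fbp1 in every mouse, and this was not so for G6pc1. Pck1 stood at 8151, 10109 and 2824 CPM in cluster 14 of mice 1, 2 and 4 and at 1859, 2298 and 2053 CPM in their cluster 16. In mouse 3, whose cluster 14 held 4 cells and is left out, it was 1306 CPM in cluster 24 and 375 CPM in cluster 16. Cluster 24 held 5951 CPM in mouse 1 and 7665 CPM in mouse 2, also above cluster 16. Fbp1 followed, at 1294, 1471 and 901 CPM in cluster 14 and 306, 346 and 353 CPM in cluster 16 of mice 1, 2 and 4, and at 1228 against 209 CPM between clusters 24 and 16 of mouse 3. The same was not seen for G6pc1, which in cluster 14 was 237, 259 and 63.5 CPM and in cluster 16 was 178, 393 and 249 CPM in mice 1, 2 and 4, higher in cluster 16 in mice 2 and 4. In mice 1, 2 and 4 the summed proximal tubule markers ran the other way from Pck1, at 2498, 1192 and 906 CPM in cluster 14 and 4585, 4620 and 2218 CPM in cluster 16 of the same mice. In mouse 3 they ran the same way as Pck1, at 2841 CPM in cluster 24 and 2294 CPM in cluster 16. Slc13a1, a large part of this sum, was among the leading genes of cluster 16, so the sum need not show the other markers. These clusters were drawn without the 5 genes, and the comparison between them is a description. Libraries also filled them unequally, since cluster 14 held 854 of its 1099 cells from mouse 4 and cluster 24 held 531 of its 572 from mouse 3. Of the fixed markers of the injured proximal tubule, cluster 24 passed Havcr1, Krt20, Sox9, Sox4 and Krt8. Cluster 16 passed Havcr1, Sox9 and Sox4, and cluster 14 passed Sox4. Cluster 24 thus passed more of that list than cluster 16, yet held more Pck1 and Fbp1 in mice 1 to 3. Havcr1 was detected in 59.1% of cluster 16 and 30.5% of cluster 24 cells of mouse 3.

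Across mice, Pck1 and G6pc1 ranged widely in the class as a whole and Fbp1 stayed in a narrow range. Pck1 was 3834, 5266, 936 and 2538 CPM in all proximal tubule-like cells of mice 1 to 4 (3143 ± 1846, SD, n = 4), and Fbp1 was 660, 777, 826 and 698 CPM (740 ± 75.1). Mouse 3 thus had the lowest Pck1 and the highest Fbp1. G6pc1 was 229, 341, 89.0 and 133 CPM (198 ± 112), lowest in mouse 3 as well. Pcx was 176, 194, 140 and 116 CPM (156 ± 35.0), and Slc37a4 averaged 42.0 ± 14.9 CPM. The filters also differed in reach, since too high a mitochondrial share removed 18.9% and 25.3% of barcodes in mice 1 and 3 but 4.65% and 3.01% in mice 2 and 4, and its part in these differences was not tested.

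None of the 5 genes passed the test between cells with late (S3) and early (S1/S2) segment markers. The cells were Havcr1-negative, 118 with S3 markers (29, 14, 64 and 11 in mice 1 to 4) and 832 with S1/S2 markers. edgeR called 2.64% of 5936 genes and 0 of these 5. None of the 5 reached an unadjusted p of 0.05, and DESeq2 called 0 too. Pck1 stood at 4346, 6471, 729 and 2501 CPM in S1/S2-marker cells and at 3135, 2867, 1688 and 3931 CPM in S3-marker cells. It was lower with S3 markers in mice 1 and 2 and higher in mice 3 and 4, and its log2 difference of -0.09 had an interval of -0.93 to 0.75. The intervals were -0.44 to 0.91 for G6pc1, -0.82 to 0.49 for Fbp1, -0.14 to 1.35 for Pcx and -0.35 to 1.24 for Slc37a4. In the same cells Slc2a2 was lower with S3 markers (log2 change -2.57, edgeR adjusted p = 0.00200) and Slc38a3, a glutamine carrier, was higher (1.72, adjusted p = 0.0470).

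All 5 genes were higher in proximal tubule-like cells than in each of 4 other tubular classes, with the smallest fold in each comparison for Slc37a4. Proximal tubule-like cells, 2594 of the 39904 cells kept, held 73.6% of all deposited Pck1 UMIs, 73.9% of Fbp1, 68.0% of G6pc1 and 60.0% of Pcx. Of Slc37a4 they held 16.8%, with 32.7% in unnamed clusters and 44.8% in other named classes. Against thick ascending limb-like cells all 5 were higher, where edgeR called 38% of genes in either direction and 19% as higher. The log2 fold changes were 6.05 for Pck1, 5.69 for G6pc1, 5.54 for Fbp1, 4.38 for Pcx and 1.54 for Slc37a4 (SE 0.19, edgeR adjusted p = 1.5e-04). All 5 were also higher than in distal convoluted tubule-like cells (34% of genes called, 18.3% as higher), by 6.84 for Pck1 and 3.61 for Slc37a4. The same held against connecting tubule and collecting duct principal-like cells (37.6% called, 20.9% as higher; 7.35 and 2.86) and against intercalated-like cells (37% called, 20.4% as higher; 7.72 and 1.48).

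Thin limb-like cells, 223 cells of the loop's thin stretch, were compared after their Slc37a4 level had been seen. Slc37a4 stood there at 21.4, 40.2, 31.5 and 36.4 CPM against 60.9, 46.9, 29.5 and 30.8 CPM in proximal tubule-like cells. It was lower in mice 1 and 2 and higher in mice 3 and 4. The log2 difference was 0.49 (interval -0.22 to 1.20, edgeR adjusted p = 0.250), and the other 4 genes were higher in the proximal tubule, by 8.12 for Pck1 and 3.72 for Pcx (38.8% of genes called, 20.3% as higher). Slc37a4 made up 51.4% ± 11.6 of the summed UMIs of the 5 genes in thin limb-like cells (SD, n = 4) and 35.6% ± 4.99 in intercalated-like cells (n = 3), but 1.07% in proximal tubule-like cells, where Pck1 took 68.8%.

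**Figure D4:**
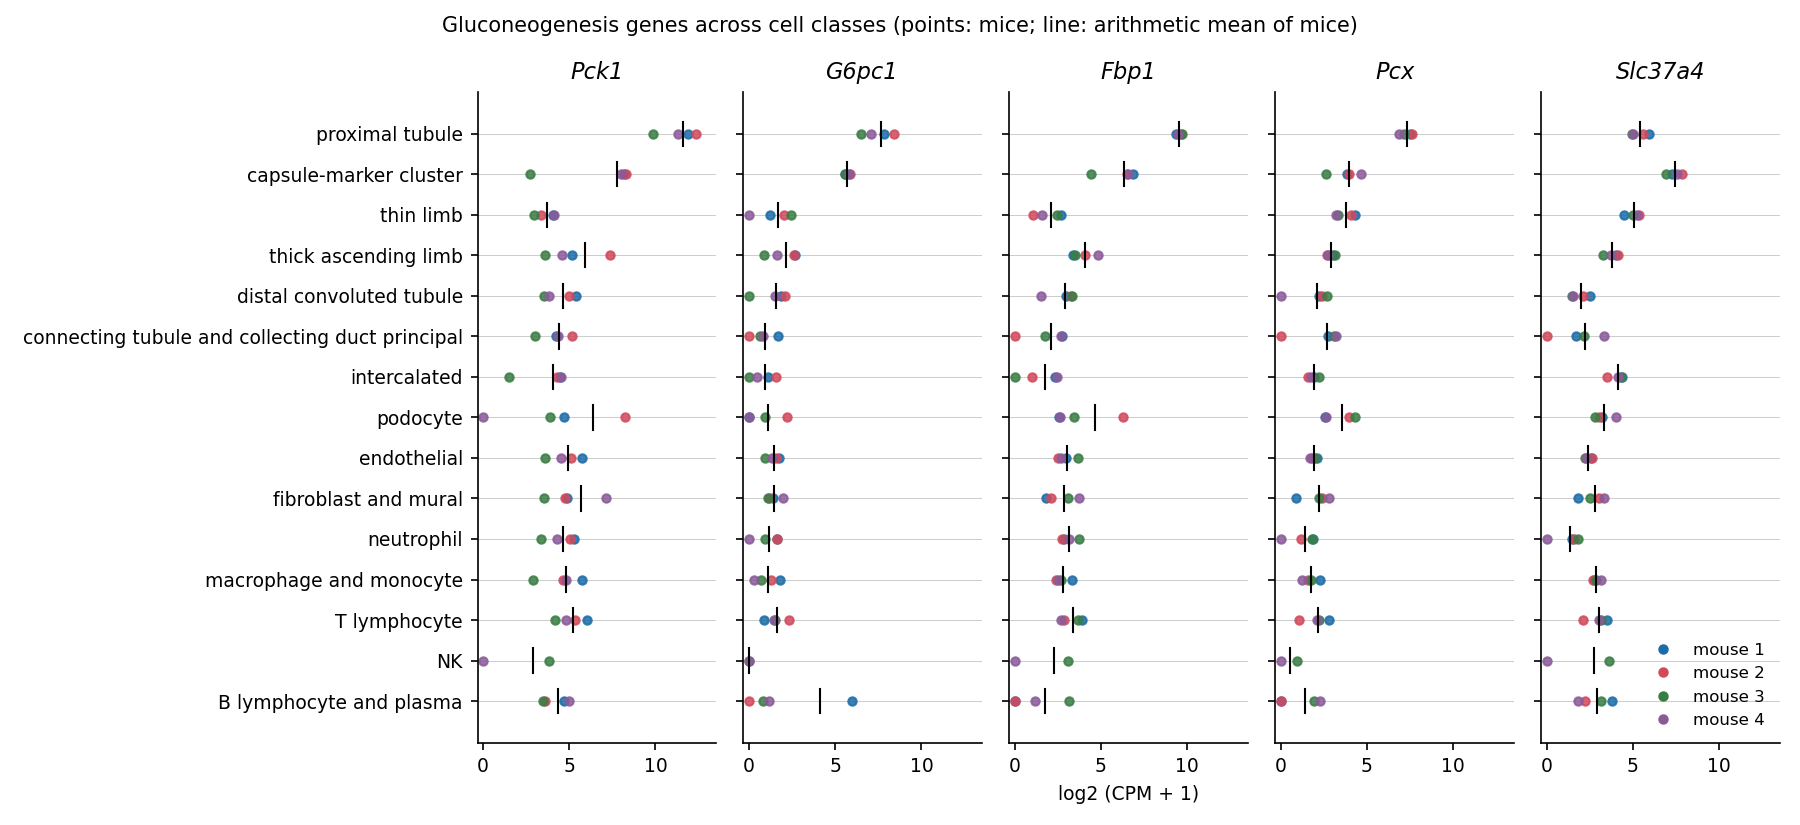
Level of each gene in every named class and in the capsule-marker cluster, as log2 of CPM plus 1, for each mouse (points; classes under 10 cells in a mouse are left out) with the mean over mice (bar). Proximal tubule-like cells lie to the right of all other classes shown for Pck1, G6pc1, Fbp1 and Pcx. For G6pc1 their lowest point, 89.0 CPM, lies near the highest of B lymphocyte and plasma-like cells (62.8 CPM) and of the capsule-marker cluster (57.7 CPM). Slc37a4 is highest in the capsule-marker cluster and spreads over thin limb and intercalated-like cells.

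Low levels elsewhere have to be read against free RNA. T lymphocyte-like cells held Pck1 at 1.34%, G6pc1 at 1.25%, Fbp1 at 1.28% and Pcx at 2.38% of the proximal tubule-like level, close to the 1.50% ± 0.88 of the summed proximal tubule markers, and Slc37a4 at 18.7%. The share of cells with a UMI was 80.9% in proximal tubule-like and 12.2% in T lymphocyte-like cells for Pck1, 60.5% and 3.66% for Fbp1, 40.8% and 1.32% for Pcx, 25.9% and 0.877% for G6pc1, and 14.2% and 2.71% for Slc37a4. Median depths averaged 3591 and 3738 UMIs per cell. After thinning to 1000 UMIs the shares were 63.5% and 5.33% for Pck1 and 4.03% and 0.563% for Slc37a4. Slc37a4 in neutrophil-like cells was 3.98% of the proximal tubule-like level. It was 86.6% in thin limb-like, 43.2% in intercalated-like (16.4 ± 4.29 CPM, n = 4) and 32.0% in thick ascending limb-like cells. For Pcx the highest share among the other named classes was 8.06%, in thin limb-like cells.

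The highest Slc37a4 level lay in a cluster of 338 cells (53, 43, 165 and 77 in mice 1 to 4) that passed the marker rule with all 6 fixed markers of the glomerular capsule epithelium, among them Cldn1, Ncam1 and Pax2, and 5 proximal tubule markers. It also held 6 markers of the injured proximal tubule, Vcam1, Sox9, Sox4, Dcdc2a, Spp1 and Krt8. The rest of that list, Havcr1, Krt20 and Lcn2, did not pass. Havcr1 had 2, 0, 5 and 3 UMIs in the cluster in mice 1 to 4. The cluster stayed unnamed, and it is described here because of its Slc37a4, so its level was not tested against other cells. Slc37a4 stood at 153, 227, 118 and 187 CPM, above the proximal tubule-like cells of the same mouse in 4 of 4 mice, at 251% to 607% of their level. The other 4 genes went the other way. Pck1 was 289, 319, 5.75 and 253 CPM, G6pc1 was 47.3, 57.7, 46.9 and 55.0 CPM, and Fbp1 and Pcx averaged 80.3 ± 41.4 and 14.3 ± 7.60 CPM, each below the proximal tubule-like level of the same mouse. The summed proximal tubule markers stood there at 31.0% of their proximal tubule-like level. With these cells counted as proximal tubule, nearly all joined the Havcr1-negative side, which grew from 475 to 635 cells in mouse 3, against 312 to 317 detected cells. edgeR then called Slc37a4 lower where Havcr1 was detected (log2 change -1.58, adjusted p = 1.9e-04). The added cells held more Slc37a4 in every mouse, so that call was set by adding them and is no further result. edgeR did not call Pck1 (-0.48, adjusted p = 0.368) or Fbp1 (-0.23, adjusted p = 0.651) in this fit.

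Beside the 5 genes, other members of their families were distributed differently. Fbp2, the fructose bisphosphatase known from muscle, averaged 28.1 ± 12.1 CPM in proximal tubule-like cells and 135 ± 91.1 CPM in the capsule-marker cluster. By mouse it stood at 154, 147, 10.6 and 229 CPM in that cluster and at 31.2, 30.1, 11.2 and 39.8 CPM in proximal tubule-like cells. It was thus higher in the cluster in mice 1, 2 and 4 but not in mouse 3, the source of 165 of its 338 cells. Pck2, the mitochondrial form of the carboxykinase, averaged 6.96 ± 1.14 CPM in proximal tubule-like cells and 46.8 ± 30.5 CPM in fibroblast and mural-like cells. G6pc3, the widely expressed phosphatase subunit, averaged 11.7 ± 3.96 CPM in proximal tubule-like cells, 34.8 ± 14.5 CPM in connecting tubule and collecting duct principal-like cells and 0.708 CPM in neutrophil-like cells. G6pc2, known from pancreatic islets, had 0 UMIs in proximal tubule-like cells. Of the other SLC37 carriers, Slc37a2 was highest in macrophage and monocyte-like cells (42.7 ± 22.6 CPM against 1.85 ± 1.15 in proximal tubule-like cells), and Slc37a3 in T lymphocyte-like cells (69.0 ± 33.4 against 16.4 ± 5.52). Against thick ascending limb-like cells, edgeR called 1 of 5 tested paralogs higher in proximal tubule-like cells, Fbp2 by 2.18 on the log2 scale, and 2 lower, G6pc3 (-1.03) and Slc37a1 (-2.42). Over all genes 19% were called higher and 19% lower, and nothing is read from the paralogs' counts beside that.

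The lists of the wider pathway held genes that were higher and genes that were lower in proximal tubule-like cells. Their counts are to be read against the 19% of all genes called higher and 19% called lower in this comparison, and the 2 of 8 reversible-step enzymes called higher and the 4 of 20 regulators called lower are shares near it. Against thick ascending limb-like cells, 2 of 8 reversible-step enzymes were higher, Eno1 among them by 1.10 on the log2 scale, and Aldoa was lower (-1.06), with a list median of 0.24 beside -0.00 over all genes. Of 15 tested genes of substrate entry, 7 were higher and 2 lower (median 0.04). The largest were Tkfc (5.14) and Khk (3.79), which handle fructose carbon, then Gpd1 (3.15), a glycerol phosphate dehydrogenase, and the lactate carrier Slc16a1 (2.72). Of 9 tested enzymes of the opposing glycolytic steps, 5 were lower, among them Hk1 (-4.20) and Pkm (-4.02), and 1 higher, the liver-type pyruvate kinase Pklr (8.02), with a median of -1.22. Slc2a2 was higher (6.84), and the glucose carriers Slc5a1 and Slc2a1 were lower (-4.55 and -2.12). Of 20 regulators, 7 were higher, among them Hnf4a (6.22) and Ppara (3.59), and 4 lower, among them Irs1 (-2.47) and the coactivator Ppargc1a (-1.53), with a median of 0.17. All of these calls are edgeR's at an adjusted p of 0.05.

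Over 54 sums of a class in a mouse (14 classes, 7709 genes), the closest followers of each gene were taken by Pearson's r of log2(CPM + 1). Among its 5 closest, Pck1 ran with the organic anion pump Abcc2 (0.853), the peroxisomal enzyme Ehhadh (0.821), Fbp1 (0.817) and Nox4 (0.813). G6pc1 ran with Abcc2 (0.870), Igsf11 (0.862), Ehhadh (0.848) and Pck1 (0.820). Fbp1 ran with Cyp2j5 (0.882), Miox (0.879), the phosphate carrier Slc34a1 (0.870) and the endocytic receptor Lrp2 (0.852). Pcx ran with Kcnj15 (0.841), Bnc2 (0.839), Fbp1 (0.822), Ephx2 (0.801) and Cldn2 (0.798). For Slc37a4 the closest were the folate receptor Folr1 (0.742), Enpp2 (0.722), Fut9 (0.701), Nceh1 (0.698) and Cldn2 (0.694), and its r with Pck1 was 0.408. Sums of 1 mouse share a library and its depth, and these values describe likeness only. Pcx shares its span with Lrfn4 on the other strand in the reference annotation. The sources used here do not state whether the counting used strand, and whether any Pcx counts came from Lrfn4 was not tested.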

How the data were processed

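Each library was deposited as a matrix of UMI counts per gene and barcode, whole numbers with no normalization. Cell Ranger 9.0.1 produced them, per the file headers and the submitters' processing notes, which also name Seurat 4.1.1 with no role. The genome build, annotation and aligner are not given in the sources used here. Library totals were 66762741, 64757026, 105436725 and 36831995 UMIs in mice 1 to 4, and floors and counts cover counting error only.

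Barcodes with 500 UMIs, 300 genes and under 50% mitochondrial UMIs were kept. Doublets were called per library with Scrublet in scanpy 1.11.5 and removed (2, 131, 345 and 557; at 0.0282% of cells the caller did not work in mouse 1). The 2000 most variable genes, without the 5 genes, their lists, Havcr1, mitochondrial and ribosomal genes, gave 30 components, 15 neighbours and 44 Leiden clusters (leidenalg 0.10.2, resolution 1, no integration). A cluster was named "-like" from at least 3 fixed markers in 20% of its cells and 2-fold above the others. Names may differ from those of the submitters.

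Counts were summed per mouse and class (10 cells or more) and tested with edgeR 4.0.16 in R 4.3.3 (TMM, filterByExpr, quasi-likelihood test, mouse as a block, Benjamini-Hochberg over all genes, call at 0.05). The block comes from the design, since both classes are cells of 1 library. The script was tested on simulated data. Alternatives were DESeq2 1.42.0, other scaling, filters, clusters, thinning and each mouse left out. The thin limb comparison, the fit within 1 cluster and that without cells holding other markers were chosen after the data were seen. The 5 genes and the lists were chosen with earlier results of these data known. Named genes are the 5 genes, up to 4 called genes of each of 9 lists with the largest change, and the 5 closest followers of each gene; Slc2a2, Krt20, Gapdh, Aldoa and the cluster high in Slc37a4 were added after their values were seen. Promoters are RefSeq's (GRCm38.p6), matched by gene identifier. Some genes that the rule selects are not reported here.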

Additional observations from a re-analysis of the deposited data

Results flagged for a closer look

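In 6 of 75 groups tested, 1 mouse lay far from the other 3 by Dixon's test at the 95% level, which chance alone gives in about 1 of 20 groups. G6pc1 stood at 62.8 CPM in B lymphocyte and plasma-like cells of mouse 1, from 5 UMIs in 13 cells. Fbp1 stood at 8.01 CPM in the same class of mouse 3. In mouse 2, Pck1 reached 298 CPM and Fbp1 77.7 CPM in podocyte-like cells, and thick ascending limb-like cells held Pck1 at 166 CPM. In fibroblast and mural-like cells of mouse 4, Pck1 reached 141 CPM.

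The barcodes that the filters removed, which no comparison used, also held the genes above the 0.124 CPM that a count of 3 gives there. Pck1 stood at 148 CPM, Fbp1 at 46.0 CPM, Pcx at 11.3 CPM, G6pc1 at 10.1 CPM and Slc37a4 at 6.19 CPM over all removed barcodes.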

How the results depend on the processing

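Between Havcr1 states, edgeR called 2 of the 5 genes. Without the replicate block, which drops the pairing of both states within a mouse, it called 0 (0 at an unadjusted p of 0.05), with log2 changes of -1.36 for Pck1 and -0.92 for Fbp1. It called 0 with Havcr1 set at 2 UMIs or more, where these were -1.47 and -1.04, and 0 within cluster 16, where they were -0.61 and -0.57 (4 genes at an unadjusted p of 0.05 in each), and 1 with the capsule-marker cluster counted in or with cells gated by markers alone (Slc37a4 in both). With the cluster counted in, that call was set by adding cells high in Slc37a4 to the negative side. The gate took cells of any cluster with at least 3 proximal tubule markers and no UMI of Ptprc, Umod, Slc12a1 or Pecam1. Cells of the capsule-marker cluster could therefore enter it, and their part in the gated call was not tested. Leaving out each mouse gave 0 to 2, and DESeq2 called 2. At 2000 UMIs per cell, 66.1% of negative and 42.8% of detected cells held 2 or more of the genes. The other alternatives left each comparison's count of the 5 genes called unchanged or within 1.5 times. No called change turned its sign. Of those not called, Pcx between states turned to 0.52 with the capsule-marker cluster and 0.48 with gated cells, from -0.21. Between segment markers, leaving out each mouse gave -0.58 to 0.26 for Pck1, which turned above 0 without mouse 1 (0.039) or mouse 2, and -0.059 (without mouse 1) to 0.40 for G6pc1. The causes of the changes above were not tested.

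Over all genes, the 149 calls between states became 1 without the block, 22 to 308 without a mouse, 848 with the capsule-marker cluster, 57 with gated cells, 39 at 2 Havcr1 UMIs, 37 within cluster 16, 27 without cells holding other markers and 509 with no filter on low counts. The 157 calls between segment markers became 34 without the block, 10 after thinning, 243 with no filter and 52 without mouse 1. Against the 5 other tubular classes, 3410 to 4394 calls became 1577 to 2148 without the block and 742 to 2054 after thinning, which tested fewer genes. Depth limits Slc37a4 most, with 104 UMIs in all Havcr1-detected cells, and the S3-marker cells of mouse 4, which were 11.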
